A study of Drosophila melanogaster with 3 samples.

Results

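The regions described here are 3602 weak but recurrent entries in a map of Antennapedia (Antp) on chromatin of Drosophila melanogaster embryos. They were selected on their signal and on their recurrence. Their signal in the peak list called on pooled replicates lay below that of every peak accepted by the irreproducible discovery rate (IDR) procedure, and a window of 100 bp to each side of their summit touched no IDR peak. Each also had a summit within 100 bp in the separate peak list of all 3 replicates. They made up 12% of the 30000 entries of the pooled list, and 14.3% of the 25181 entries that lay below the threshold and away from IDR peaks. The IDR list itself held 4351 peaks.

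The embryos were aged 0 to 24 h, with males and females pooled, and form 1 group of 3 biological replicates. All came from a fly line in which an eGFP exon, placed in an intron of Antp by a MiMIC insertion, makes an Antp-eGFP fusion under the gene's own control. Sonicated chromatin of 200 to 800 bp was used for the pulldown and sequencing (ChIP-seq). One label gives anti-GFP as the antibody and another gives Antp, and the first was followed. Whole embryos mix cells that make Antp with cells that do not, so a weak entry from few cells and one from weak occupancy cannot be told apart. Pulldowns from embryos without the fusion, or with another tagged protein, were not analysed here.

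Antp is a Hox protein, one of the homeodomain transcription factors that give body segments their identity along the head-to-tail axis, and it is best known for making thoracic segments and for preventing antennal fate in the leg. Homeodomains contact short AT-rich cores built around TAAT, and Hox proteins often bind together with the cofactors Extradenticle (Exd) and Homothorax (Hth). The IDR procedure compares the ranking of peaks between replicates to judge how many can be called reproducible. Input lists for it are called leniently, so that they run from strong peaks down into background.

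Sequence windows reaching 50 bp to each side of a summit are shown first for the best-ranked entries with a recognisable site. They were picked for their site and rank, so they are examples and not typical of the recurrent entries. All are centred on the pooled summit, are read from the plus strand of the RefSeq dm6 sequence, and lie outside annotated exons. Capitals mark a match on either strand, so a capital run may be the reverse complement of the letters given for a motif. In the first 4 windows the capitals mark a Hox core (TAAT followed by TA, TG, GA or GG).

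hep intron: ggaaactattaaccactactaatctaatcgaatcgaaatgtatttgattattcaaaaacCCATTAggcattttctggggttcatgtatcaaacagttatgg
fog intron: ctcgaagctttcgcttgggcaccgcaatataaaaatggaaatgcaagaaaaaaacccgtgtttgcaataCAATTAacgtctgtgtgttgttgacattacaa
3L intergenic: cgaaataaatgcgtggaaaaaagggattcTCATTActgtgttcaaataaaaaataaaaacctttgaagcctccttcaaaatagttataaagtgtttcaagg
2L intergenic: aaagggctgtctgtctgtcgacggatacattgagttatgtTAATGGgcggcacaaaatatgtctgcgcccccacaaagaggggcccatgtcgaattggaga

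The hep window lies at chrX:13088180-13088280 in an intron of hep, which encodes the kinase that activates JNK and is needed for dorsal closure of the embryo. Its summit ranked 4631, 4201 and 4201 among the 30000 entries of replicates 1, 2 and 3, where rank 1 is the strongest signal. The fog window lies at chrX:22837489-22837589 in an intron of fog, the ligand that drives cell shape change at gastrulation, and ranked 5348, 5350 and 4300. The intergenic windows lie at chr3L:764457-764557, ranked 6267, 4421 and 4099, and at chr2L:14538052-14538152, ranked 6567, 3659 and 6751. All 4 stood in the stronger part of every replicate list. The hep entry was among the top 4351, the length of the IDR list, in 2 replicates and the others in 1.

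In the next windows the capitals mark an Exd-Hox composite site (TGATNNAT), the letters that an Exd and Hox pair can share.

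Shaw intron: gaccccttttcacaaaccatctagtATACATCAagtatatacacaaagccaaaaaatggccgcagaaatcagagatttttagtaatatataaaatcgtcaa
haf intron: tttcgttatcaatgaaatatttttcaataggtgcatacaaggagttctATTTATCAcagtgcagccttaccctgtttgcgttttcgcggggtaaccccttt

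The Shaw window (chr2L:3719566-3719666) lies in an intron of Shaw, a voltage-gated potassium channel gene, and ranked 4954, 4377 and 5246. The haf window (chr2L:1575834-1575934) lies in an intron of haf, which encodes a leucine-rich repeat protein, and ranked 3852, 4536 and 5721. Both are AT-rich, with GC contents of 33.8% and 38.3% over 201 bp.

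In the last windows the capitals mark GAGAGAG, read by GAGA factor (Trl), or the DRE letters TATCGATA, read by the housekeeping promoter factor DREF.

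intron near brk: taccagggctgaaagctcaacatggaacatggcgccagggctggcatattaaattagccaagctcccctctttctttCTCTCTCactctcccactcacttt
tna intron: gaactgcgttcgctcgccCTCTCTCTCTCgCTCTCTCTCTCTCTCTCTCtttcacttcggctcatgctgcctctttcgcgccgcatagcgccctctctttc
CG4452 promoter: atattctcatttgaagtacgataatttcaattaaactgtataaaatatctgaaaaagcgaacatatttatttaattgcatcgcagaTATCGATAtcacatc
hyd promoter: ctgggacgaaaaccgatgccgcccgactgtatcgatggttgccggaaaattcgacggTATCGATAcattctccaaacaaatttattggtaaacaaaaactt

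The window near brk lies at chrX:7300424-7300524, in an intron shared by CG1677 and lncRNA:CR44357 and 7465 bp from the start of brk, which encodes a repressor of Dpp target genes. It ranked 2606, 5201 and 4705. The tna window (chr3L:10856633-10856733) carries 10 overlapping GAGAGAG matches in an intron of tna and ranked 3448, 6067 and 4234. The DRE windows lie 70 bp from the start site of CG4452 (chr3L:9367257-9367357) and 56 bp from that of hyd, a ubiquitin ligase gene (chr3R:9725621-9725721). Their ranks were 9273, 7841 and 6936 at CG4452 and 4202, 7175 and 9487 at hyd.

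The values that chose the entries are given next as description only. Signal means the peak caller's own strength value, deposited by the authors. It ran from 32.8 to 103.34 over the 3602 entries, with a median of 70.5. Just inside the threshold were entries near CG13287 (chr3L:5881614-5882003, signal 103.34), in an intron of pum (chr3R:9083340-9083729, 103.33) and 114 bp upstream of the kinase gene Akt (chr3R:16098919-16099308, 103.32). Just outside it were the weakest IDR peaks, 560 bp from ken (103.35), 423 bp from lncRNA:CR45364 (103.40) and 3216 bp from Adk3 (103.40). Entries just inside and just outside the threshold thus had nearly the same signal. Of the 30000 entries of the pooled list, 25649 lay below the threshold. The IDR list, with 4351 peaks, was as long as the part at or above it. The weakest recurrent entries were at the promoter of the guidance gene NetB (32.8), in an intron of CG31140 (33.0) and at the promoter of the translation factor gene eIF2Bepsilon (33.1).

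Recurrence rose steeply with pooled signal. With the 25181 eligible entries cut into 5 equal bins of signal, 0.159% of the weakest bin, 0.556% of the next, then 3.20% and 16.4%, and 51.2% of the strongest bin were found in all 3 replicates. The IDR peaks reached 92.0%. Of the eligible entries, 9077 were found in 2 replicates, 10334 in 1 and 2168 in none. The share matched in a single replicate was 51.6%, 49.7% and 54.7% (mean 52.0% ± 2.54, SD, n = 3). A further 468 entries below the threshold touched an IDR peak and were left out by the rule, 73 of them found in all 3 replicates.

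Within the replicate lists the entries sat in the upper middle, and their order varied from one replicate to the next. The median rank was 11306, 10478 and 10410 in replicates 1, 2 and 3. Ranks in pairs of replicates correlated weakly over the 3602 entries, with Spearman's rho of 0.170 (replicates 1 and 2), 0.187 (1 and 3) and 0.254 (2 and 3). The entries share libraries, and the rule that chose them narrows their range of signal. In replicates 1, 2 and 3, 278, 241 and 255 of them ranked among the top 4351, as many as the IDR list holds. None did so in all 3 replicates, 53 did in 2 and 668 in 1. The 3 replicate summits of an entry spanned a median of 62 bp, at most 195 bp.

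The entry whose worst rank was best of all lay 35 bp upstream of Lsd-2, a perilipin gene of lipid droplets (chrX:15076060-15076449), with ranks of 4397, 4530 and 4291 (mean 4406 ± 120, SD, n = 3). Its replicate signals were 34.1, 34.6 and 39.99. By the same measure it was followed by the hep intron shown above and by promoters of unc80, part of a sodium leak channel complex (ranks 4982, 4822 and 4725), and lolal, a BTB protein gene (4533, 3214 and 4983). Next came promoters of the chemokine-like gene orion (4984, 4116 and 4838) and of the FK506-binding protein gene Fkbp12 (3566, 5039 and 4349), and an intron of the kinase gene Tlk (4546, 5049 and 4380). The top 10 closed with promoters of CG13398 (4733, 5163 and 5076) and of tara (5187, 3937 and 3983) and the intron near brk. Promoters thus supplied 7 of these 10, introns 3.

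By contrast, entries with the highest pooled signal could be uneven across replicates. The CG13287 entry ranked 12738, 3652 and 3219. The Akt entry ranked 18986, 2433 and 4012, with signals of 17.0, 54.7 and 42.0. The pum entry was steadier, at 4122, 3958 and 7285.

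The entries lay mainly at gene starts and in introns, with a sizeable part inside coding exons. Each summit was put in 1 class, first of all promoter, meaning a transcription start site (TSS) no more than 500 bp away. Promoters held 1188 entries (33.0%, 95% interval 31.4 to 34.5), introns 1111 (30.8%), coding sequence (CDS) 685 (19.0%) and intergenic DNA 519 (14.4%). The remaining 39 were in 5′ UTRs, 34 in 3′ UTRs and 26 in other exons. Among IDR peaks the promoter share was 54.9% and the CDS share 0.667%. Among the 21579 other weak entries, below the threshold and found in fewer than 3 replicates, the shares were 21.7% and 29.0%. Intron shares were close to one another in all 3 sets, at 30.8%, 29.2% and 30.8% for recurrent, other weak and IDR entries. An annotated transposon held the summit of 5 recurrent entries (0.139%), of 0.269% of other weak entries and of 0.184% of IDR peaks.

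The promoter share also moved with the number of replicates that found an entry, from 15.5% of those found in none through 20.2% in 1 and 25% in 2 to 33.0% in all 3. The CDS share went from 30.9% through 30.2% and 27.1% to 19.0%.

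Within the recurrent entries the make-up shifted with signal. In 5 equal bins from weak to strong, the promoter share was 22.5%, 26.3%, 32.6%, 38.2% and 45.4%. The CDS share was 29.0%, 27.8%, 21.7%, 11.0% and 5.69%. Intron and intergenic shares stayed between 28.1% and 34.0% and between 13.2% and 15.3%. The strongest recurrent entries thus came nearest to the IDR peaks in location, and the weakest resembled the other weak entries.

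**Figure D1:**
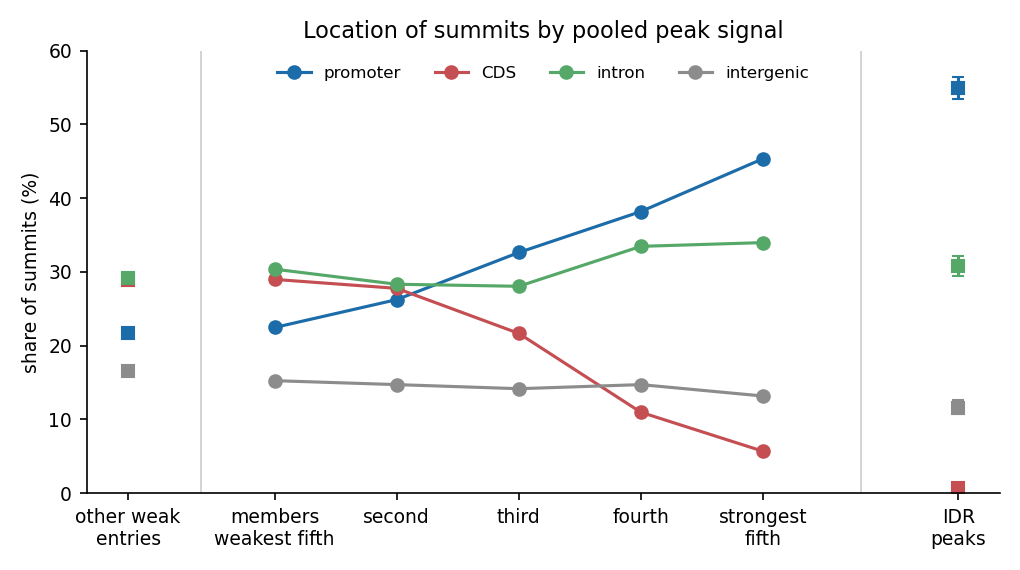
Share of summits (%) in promoters, CDS, introns and intergenic DNA for the other weak entries (left), the recurrent weak entries (members) in 5 equal bins of pooled signal (middle), and IDR peaks (right). Bars on the outer points are exact 95% binomial intervals. The promoter share of members climbs from 22.5% to 45.4% as the CDS share falls from 29.0% to 5.69%.

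Location was not used by the rule, so it was compared within each replicate, by that replicate's own summits. The comparison set was the weak entries matched in that replicate but not in all 3. The recurrent entries are the same 3602 loci in every replicate, so their 3 values differ only by shifts of the summit. These tests therefore largely restate the pooled shares and are not 3 independent samples of loci. Recurrent entries were at promoters in 33.1%, 33.1% and 32.8% of cases in replicates 1, 2 and 3, against 21.7%, 24.7% and 23.3% of the others. The difference was 9.77 percentage points ± 1.51 (SD, n = 3 replicates). For CDS the recurrent entries had 19.1%, 18.7% and 18.8%, against 32.3%, 24.4% and 27.7%, a difference of -9.26 points ± 3.82. Intergenic shares differed by -1.71 points ± 0.513. Each of these 3 differences had p = 0.25 by a two-sided exact paired permutation test, which is the smallest p that 3 replicates allow. Intron shares differed by 1.94 points ± 1.91 (exact permutation p = 0.5), with 1 replicate going the other way.

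The promoter difference was smaller with signal held, by an amount that depended on how the bins of signal were combined. By pooled summits, in 5 equal bins of the eligible entries, promoters made up 37.3% of 2578 recurrent entries and 34.9% of the others in the strongest bin. In the next bin down the order was the other way, at 21.6% of 827 and 24.9%, and in the third the shares were 20.5% of 161 and 20.6%. The weakest bins had 42.9% of 28 against 17.6% and 37.5% of 8 against 17.8%. By replicate, with the bins weighted by their number of recurrent entries, the difference was 1.06 points ± 1.40 (n = 3, exact permutation p = 0.5), and in the strongest bin alone 2.08 ± 1.29 (exact permutation p = 0.25). The unweighted mean over 5 bins was 6.79 ± 1.03 and gives the bins of 8 and 28 entries as much weight as the others; without the weakest it was 5.91 ± 1.62. In CDS the strongest bin had shares of 15.2% and 19.2%.

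**Figure D2:**
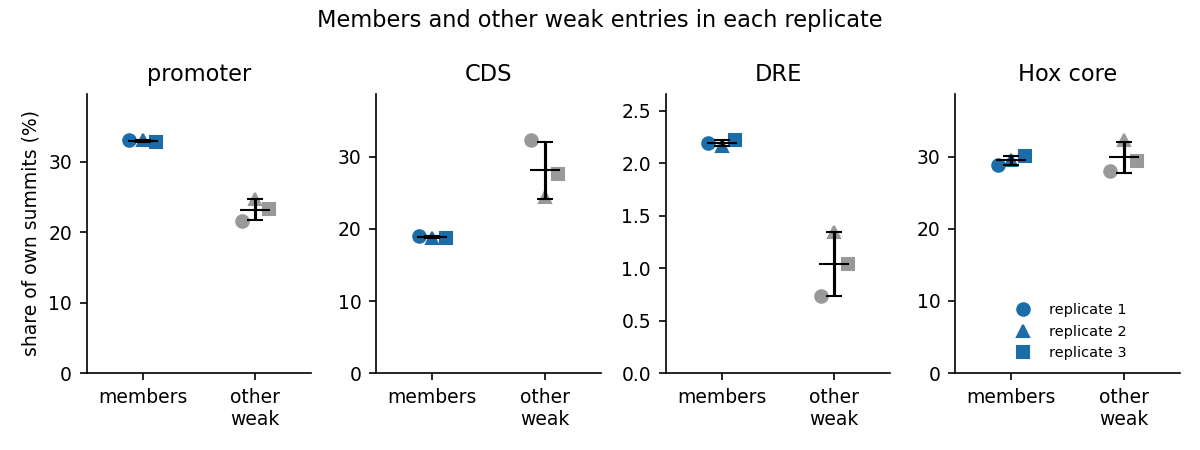
Share of own summits (%) at promoters, in CDS, with a DRE and with a Hox core, for recurrent weak entries (members) and the other weak entries of the same replicate. Each point is 1 of 3 replicates, with the mean and SD as lines. The members are the same loci in each replicate, so their points lie close together; at promoters they are at 32.8% to 33.1%, against 21.7% to 24.7%.

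At promoters the entries sat close to the start site. The median distance to the TSS was 105 bp, and 580 of the 1188 promoter entries (48.8%) were within 100 bp. Upstream of the start lay 54.5% of them, compared with 78.7% of IDR promoter peaks and 40.9% of the other weak promoter entries. The nearest start belonged to a protein-coding gene for 1078 entries (90.7%), to a noncoding RNA for 87, to a snoRNA for 12, to a tRNA for 6 and to an snRNA for 2. They fell on 1148 genes. Of them, 122 (10.3%) were at a gene that also had an IDR summit at a promoter, close to the 10.5% of other weak promoter entries and the 12.1% of all 18277 annotated genes. Both sets of weak entries were kept away from IDR peaks, and the effect of this on their shares was not tested. Their shares are of entries, whereas the last is of genes.

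In coding sequence the entries were GC-rich. The mean GC content over 201 bp was 60.2% for the 685 CDS entries, against 45.6% at promoters, 43.1% in intergenic DNA and 41.8% in introns. Of the CDS entries, 656 (95.8%) had a GC content of 50% or more. They were assigned to 672 genes, 52 of which had more than 1, and an entry could count for more than 1 gene. Of these genes, 53.9% also had an IDR summit. The share was 41.5% for all coding genes with a recurrent entry and 30.0% for all coding genes. Gene length was not held equal between these sets. By worst rank the class was led by an entry in Xrp1, which encodes a bZIP stress factor involved in cell competition (chr3R:18926086-18926475, ranks 5632, 4411 and 3745), and one in CG32982 (chr2L:9127117-9127506, ranks 5790, 4912 and 5468). Their GC contents were 61.7% and 71.1%.

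CDS entries stood highest in replicate 1. Their median ranks were 11983, 14261 and 14260 in replicates 1, 2 and 3. The 39 entries in 5′ UTRs also stood highest in replicate 1, at 11017, 12590 and 13440. Promoter entries had 10362, 9064 and 8718, intron entries 11576, 9767 and 10129, and intergenic entries 12027, 10916 and 10955, all poorest in replicate 1. The best of an entry's 3 ranks was that of replicate 1 for 42.3% of CDS and 53.8% of 5′ UTR entries, compared with 31.6% of promoter and 29.8% of intron entries. The other weak entries of replicate 1 likewise had the highest CDS share (32.3%) and the highest mean GC content (51.1%, against 48.2% and 49.4%). The part of replicate 1 in the location of CDS entries was not tested.

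**Figure D3:**
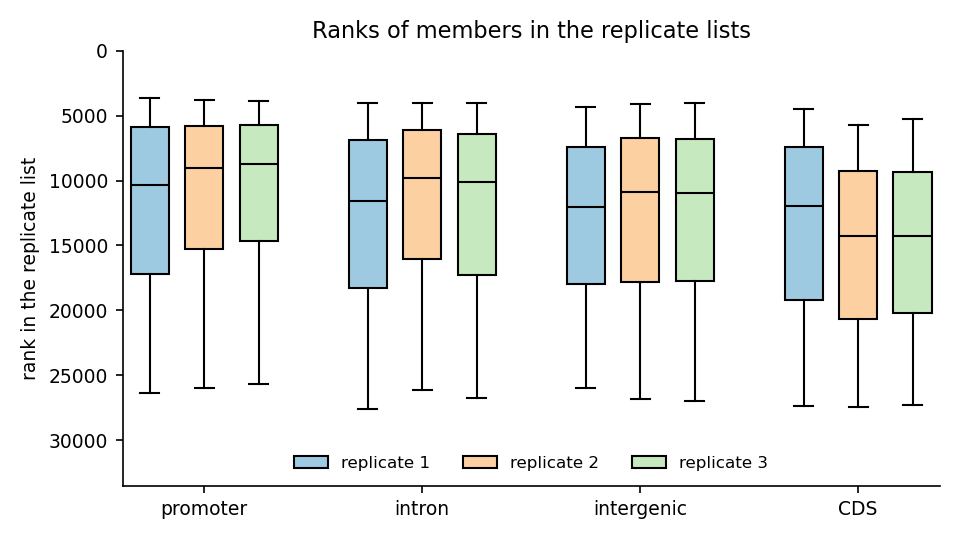
Rank of recurrent weak entries in the list of each replicate (rank 1 at the top is the strongest), by class. Boxes show quartiles with the median as a line, and whiskers reach the 5th and 95th percentiles. For CDS the median is 11983 in replicate 1 and 14261 and 14260 in replicates 2 and 3, whereas the 3 other classes plotted have their poorest median in replicate 1.

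GC content set the recurrent entries between the other sets. Their mean was 46.9%, against 39.3% for IDR peaks and 49.8% for the other weak entries. Windows 1 kb to either side of the entries averaged 42.9% and those beside IDR peaks 43.2%, so the recurrent entries were richer in GC than their surroundings and the IDR peaks poorer. The distribution was broad, with 32.2% of entries under 40% GC, 27.9% from 40% to 50% and 39.9% at 50% or more. In the last class 45.6% were CDS. From the weakest to the strongest of 5 bins, mean GC content fell from 50.4% to 42.4%. In the replicates the difference from the other weak entries was -2.64 points ± 1.35 (exact permutation p = 0.25, the smallest possible).

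**Figure D4:**
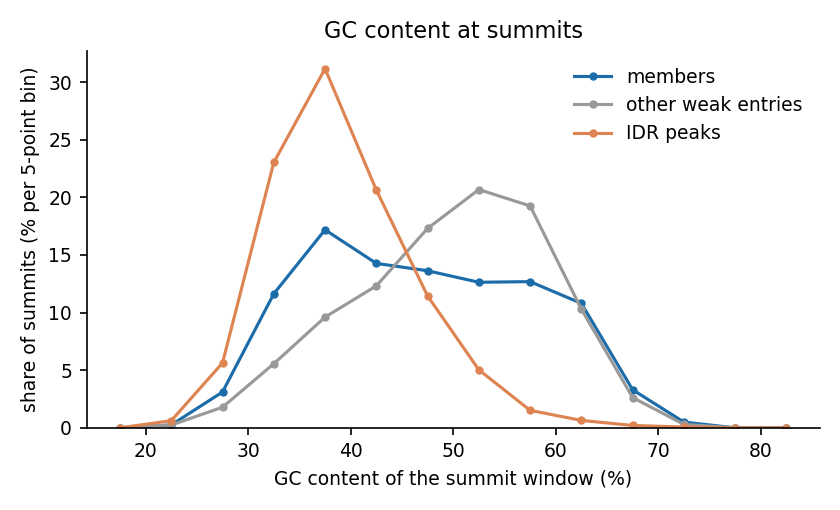
Distribution of GC content (% in the 201 bp around the summit, bins of 5 points) for recurrent weak entries (members), other weak entries and IDR peaks, as a share of each set (%). The members spread over the whole range with a mean of 46.9%, between IDR peaks (39.3%) and other weak entries (49.8%).

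The Hox core was no more common in the recurrent entries than in the other weak ones. It was found on either strand within 100 bp of 1067 summits (29.6%, 95% interval 28.1 to 31.1), of 29.8% of the other weak summits and of 40.3% of IDR summits. In windows 1 kb to either side of the recurrent entries, which are poorer in GC, it was found in 42.1%. The Hox core letters read in reverse order without complementing, which keep the composition, were found in 26.0%, 23.2%, 37.4% and 35.0% of these 4 sets. The bare TAAT was in 66.4% of recurrent windows, 62.9% of other weak, 87.4% of IDR and 79.3% of flanking windows; every Hox core contains it.

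Composition moved with these shares. Below 40% GC, 47.6% of recurrent, 50.2% of other weak and 47.5% of IDR windows had a Hox core. Between 40% and 50% the values were 33.6%, 40.1% and 32.7%, and at 50% or more they were 12.3%, 17.5% and 14.8%. In no GC class was the share of recurrent entries above that of the other weak entries. By class, 39.9% of intron entries, 37.8% of intergenic entries, 29.2% of promoter entries and 7.74% of CDS entries had a core. By replicate the recurrent entries had 28.9%, 29.6% and 30.1%, and the others 28.1%, 32.3% and 29.4%. These overlap, and the difference was -0.41 points ± 2.00 (n = 3, exact permutation p = 1). Without replicate 2 it was 0.739. It was -2.05 points ± 2.25 in the strongest bin of signal alone and -2.26 ± 1.09 as a mean over 5 bins (exact permutation p = 0.25 for both).

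The Exd-Hox letters were in 369 recurrent windows (10.2%), as against 8.96% of other weak, 12.2% of IDR and 13.4% of flanking windows. The intergenic and intron entries had 14.8% and 14.1%, promoter entries 8.67% and CDS entries 2.77%. The share in flanking windows was thus above that of the entries themselves.

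Core promoter elements were found mostly at promoters. The DRE was in 81 recurrent windows (2.25%), 74 of them at promoters, compared with 0.899% of other weak, 4.80% of IDR and 0.497% of flanking windows. Ohler1 (GGTCACAC), the core promoter element read by M1BP, was in 74 windows (2.05%), 62 of them at promoters, against 1.05%, 2.80% and 0.573%. Of the 1188 promoter entries, 6.23% had a DRE, 5.22% Ohler1 and 11.2% either. Among promoter summits of the other weak entries, 3.16% had a DRE and 3.43% Ohler1. Among IDR promoter peaks the shares were 8.41% and 4.69%. Promoter entries with a DRE had a median signal of 83.3 and lay a median of 36 bp from the TSS, and those without had a median signal of 74.9. Across 5 bins of signal, the DRE share of all recurrent entries was 0.416%, 0.972%, 1.94%, 3.61% and 4.30%.

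By replicate the DRE share was 2.19%, 2.17% and 2.22% in recurrent entries and 0.734%, 1.35% and 1.04% in the others, a difference of 1.15 points ± 0.321. For Ohler1 the difference was 0.902 points ± 0.227. Both had an exact permutation p of 0.25, the smallest possible. The DRE difference also moved with signal: weighted over 5 bins by the number of recurrent entries it was 0.280 points ± 0.408 (exact permutation p = 0.5). It was 0.623 ± 0.373 in the strongest bin alone and 0.0070 ± 0.144 as an unweighted mean (exact permutation p = 1), or 0.136 ± 0.203 without the weakest bin.

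GAGAGAG was in 136 recurrent windows (3.78%), in 3.06% of other weak, 4.55% of IDR and 2.73% of flanking windows, and in 5.47% of promoter entries. The E-box CAGCTG, a site of bHLH proteins, was in 12.9%, with 22.9% of the GC-rich CDS entries and 7.74% of intron entries. It was in 13.7% of other weak, 11.5% of IDR and 9.39% of flanking windows. CAGGTAG, the site of the early factor Zelda, was in 1.19% against 1.58%, 1.08% and 1.12%. The GATA letters AGATAAG were in 2.25% against 1.62%, 2.55% and 2.47%, and TTTATTG, read by Caudal, in 5.27% against 5.09%, 8.14% and 7.79%. TGANTCA, read by Jun and Fos, was in 4.08% against 3.27%, 4.57% and 4.70%. Runs of 8 A or T letters (AAAAAAAA) were in 8.27% against 6.13%, 12.1% and 11.1%. For TTTATTG and the runs, the recurrent entries thus lay below both IDR peaks and flanks, as for the Hox core.

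Along the genome the entries were spread over the large arms at 24.1 to 29.8 per Mb, lowest on X and highest on 3R. IDR peaks had their highest density on X, at 37.4 per Mb, against 30.01 to 34.4 on the large autosomal arms. Of the weak entries on each large arm, 13.4% to 15.1% were recurrent, with X at 14.8%. Chromosome 4 held 2 recurrent entries and Y none. The median distance from a recurrent entry to the nearest IDR summit was 6846 bp. It was within 1 kb for 8.13% of them and over 50 kb away for 5.50%. For the other weak entries the median was 8314 bp, with 6.33% within 1 kb and 7.43% over 50 kb. It lengthened as fewer replicates found an entry, from 7437 bp for 2 to 8885 bp for 1 and 9772 bp for none.

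Of the 3602 entries, 3120 (86.6%) lay in a protein-coding gene or within 1 kb of one. Of 13968 protein-coding genes, 3192 (22.9%) had such an entry, 1866 (13.4%) had one and no IDR summit, and 4186 (30.0%) had an IDR summit. Long genes have more room for an entry, which these counts do not correct for. The median span was 4582 bp for genes with a recurrent entry, 9951 bp for the 1326 genes with both kinds, 3117 bp for those with a recurrent entry only and 1672 bp for those with neither.

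The genes with the most recurrent entries, counted in the span or within 1 kb, had long spans. The adhesion gene kirre, which acts in myoblast fusion, had 12, of which 11 were in introns. Its span is 394149 bp (chrX:2740384-3134532). The Hox cofactor gene hth also had 12, in 132008 bp (chr3R:10507561-10639568). The GATA cofactor gene ush had 11 in 64341 bp (chr2L:476220-540560). The translational repressor gene pum and the ecdysone-induced receptor gene Eip75B had 7 each, as did CG43658, the Wnt receptor gene fz and sbb. IDR summits at kirre, hth, ush, pum and Eip75B numbered 13, 6, 13, 2 and 6. Among genes with no IDR summit, the matrix metalloproteinase gene Mmp2 and the zinc finger gene elB had 5 each. The receptor phosphatase gene Ptp99A, the synaptic scaffold gene Prosap, the synaptotagmin-like gene btsz and CycG had 4 each. The Mmp2 entries ran from a signal of 52.5 to 95.3, and 4 of the 5 were in introns.

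Of the 8 Hox genes, 6 had a recurrent entry and 6 an IDR summit (75% each, beside 22.9% and 30.0% of all coding genes). The median span of the list was 30563 bp, against 2164.5 bp for all coding genes. The 6 genes held 11 entries, 8 of them in introns and 2 at promoters. The list includes Antp itself, which had 4 entries, at chr3R 6903534, 6913838, 6935652 and 6985754, with signals of 69.4, 62.02, 74.3 and 63.7. The strongest of them ranked 5881, 10875 and 10266, and lay in an intron 664 bp from an IDR summit. The first of them lay in a noncoding exon.

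Antp's neighbours in the Antennapedia complex gave 2 intronic entries in lab and 1 in pb, the head genes. The lab entry at 3R 6664705 had a signal of 86.5 and ranked 12423, 10264 and 2561, and lay 59309 bp from the nearest IDR summit. The second lab entry, at 3R 6674943, had 71.7 and ranked 5088, 7229 and 23822. The pb entry at 3R 6709092 had 74.3 and ranked 6891, 6755 and 15154. Dfd and Scr had none. In the bithorax complex, Ubx had an intronic entry at 3R 16718134 (signal 86.6, ranks 18313, 4123 and 5465) with a Hox core, and a weaker one 99 bp from a start site (59.3). The abdominal genes had 1 each: abd-A 218 bp from its start (51.0, ranks 12841, 22767 and 23730) and Abd-B in an intron (62.6, ranks 13387, 16431 and 10655). A Hox core was within 100 bp of 2 of these 11 summits and Exd-Hox letters of none, beside 29.6% and 10.2% of all recurrent entries. The leading lab entry was high in replicate 3 and the Ubx intron entry in replicates 2 and 3, so neither was strong throughout.

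The hth entries were all intronic. The strongest, at 3R 10579732, had a pooled signal of 100.2 and ranked 4329, 4775 and 7931, with replicate signals of 34.5, 33.3 and 27.7. It carried Exd-Hox letters and lay 34544 bp from the nearest hth start site. The others ran down to a signal of 45.6, with a median over the 12 of 60.7. A Hox core was present at 5 of them and Exd-Hox letters at 4. Over all recurrent intron entries the shares were 39.9% and 14.1%, and a difference from these was not tested. The 12 hth entries lay 1251 to 17978 bp from the nearest IDR summit. Among the other cofactor genes, disco-r had 2 entries and tsh, a partner of trunk Hox proteins, 1 in its 5′ UTR (signal 46.2, ranks 9447, 4739 and 11152). The list as a whole had an entry at 3 of 6 genes (50%, beside 22.9% of all coding genes) and an IDR summit at 2 (33.3%, beside 30.0%). Its median span was 7473 bp.

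Segmentation genes were taken as 3 lists, whose differences were not tested and whose median spans differ. The segment polarity list, which keeps segment boundaries through Wingless and Hedgehog signalling, had entries at 9 of 14 genes (64.3%, beside 22.9% of all coding genes; median span 9176.5 bp) and IDR summits at 5 (35.7%, beside 30.0%). Its strongest were in introns of the Hedgehog receptor gene ptc (signal 102.75, ranks 4008, 7667 and 4906), the Wingless antagonist gene nkd (96.9, ranks 6063, 5937 and 4860) and inv (95.9, ranks 3677, 4288 and 7333). The pair-rule list had entries at 4 of 9 genes (44.4%; median span 2833 bp) and an IDR summit at none. Of the list's 6 entries, 3 were at Ten-m, led by one in its span near a noncoding RNA start (89.1). The others included the Hairy gene hry 48 bp from its start (81.1) and the coding exon of slp2 (63.0). The gap list had entries at 3 of 13 genes (23.1%; median span 3373 bp), close to the share of all coding genes, namely cad, btd and oc.

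Among genes of the antenna and leg, where Antp is best known to act, 8 of 19 (42.1%, beside 22.9% of all coding genes) had an entry and 5 (26.3%, beside 30.0%) an IDR summit. Their median span was 19487 bp. The bric-a-brac pair bab2 and bab1, which pattern the leg and antenna, had intronic entries with signals of 102.64 (ranks 7015, 3177 and 5061) and 95.02 (ranks 8244, 12883 and 2906). An entry in the homeobox gene Lim1 had 83.9 (ranks 19732, 6744 and 5596). The bab2 entry held its place in all 3 replicates, whereas those at bab1 and Lim1 were weak in 1.

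Long signalling and adhesion genes, with the Hox genes at 75%, had the highest list shares, beside 22.9% of all coding genes. Cell adhesion and guidance had 17 of 20 genes with an entry (85.0%; median span 51788 bp), ecdysone response 9 of 12 (75%; 45299 bp) and signalling 14 of 20 (70.0%; 15127 bp). At the guidance gene Sema2a an intronic entry had a signal of 101.4 and ranks of 8709, 4187 and 5295. The nuclear receptor gene ftz-f1 had 5 entries, the strongest at 102.65 (ranks 2440, 4824 and 15788), and the ecdysone receptor gene EcR 5. The Dpp receptor gene tkv had 5, led by one of 103.22 (ranks 7543, 3759 and 3655), the Wnt receptor gene fz 7, led by 101.85 (3104, 3272 and 6698), and Stat92E 4, led by 101.3 (5610, 4259 and 5648).

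The neural, glial and mesodermal lists had shares of 37.5% to 53.3%, beside 22.9% of all coding genes. Median spans were 9105 bp for mesoderm and muscle, 3341 bp for neural fate and 4987 bp for glia. Neuronal channels and synapse had 36312 bp, and all coding genes 2164.5 bp. Mesoderm and muscle had 8 of 15 genes with an entry, led by twi (91.5), the tropomyosin gene Tm1 and Mef2. Neural fate had 7 of 18, led by brat (94.7) and insc, and neuronal channels and synapse 5 of 13, led by Shaw (99.9) and by Syx1A 61 bp from its start (93.1, ranks 5404, 5048 and 5999). Glia had 3 of 8, led by loco (99.1), pnt and gcm2. Trachea was lower, with 1 of 9 (11.1%), rib (96.9, ranks 5277, 5434 and 4268).

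IDR summits were more frequent than recurrent weak entries over all coding genes (30.0% and 22.9%), and also in the chromatin, housekeeping, ecdysone, glia and trachea lists. Polycomb and trithorax genes had entries at 7 of 20 and IDR summits at 13, with the strongest entry in an intron of trx (99.7). Cytosolic ribosomal protein genes had 32 of 92 (34.8%) and 59 (64.1%). These genes are short (median span 1315 bp), and entries assigned to them often lay at a neighbour's start, as for RpS28a, where the summit was 52 bp from the start of Axn. RpS7 had one 3 bp from its own start (93.1, ranks 9410, 4970 and 4332). Cell cycle genes had 4 of 13 and 10, and heat shock genes 2 of 9 and 5. At the low end, chemosensory receptor genes had entries at 4 of 179 (2.23%) and cuticle protein genes at 10 of 70 (14.3%), with IDR summits at 7 and 2. For the neighbours Cpr64Aa and Cpr64Ab the entry was the same one, and likewise for Cpr65Ea and Cpr65Eb. Most cuticle genes with an entry had the summit outside their span, within 1 kb.

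**Figure D5:**
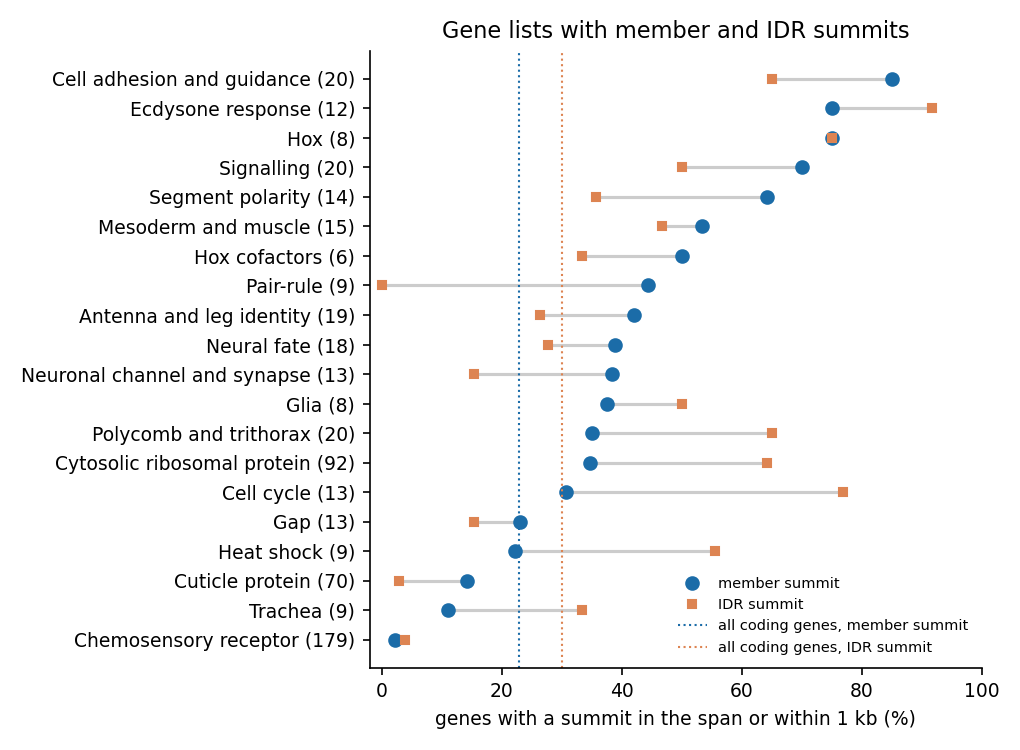
Share of genes (%) in each of 20 lists with a recurrent weak summit (circles) or an IDR summit (squares) in the gene span or within 1 kb; the number of genes is in brackets. Dotted lines mark all protein-coding genes, at 22.9% and 30.0%. Adhesion and guidance genes are highest for the weak entries at 85.0%, and chemosensory receptor genes lowest at 2.23%.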

How the data were processed

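ChIP-seq was analysed as peak lists of 3 biological replicates of 1 group. Per the deposited file descriptions, peaks were called per replicate with a control, then on the replicates combined, and the IDR list came from these 4 lists. Which aligner, caller and IDR threshold were used is not given in the sources used here. For each entry the authors deposited the caller's signal, used here to rank and describe entries within a list, and a −log10 q-value, used only as an alternative ranking. The files hold no read counts, so the depth is unknown. Columns of other samples numbered 0 and none was left out.

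Positions are 1-based on dm6, with RefSeq sequence and Ensembl release 115 genes. A summit up to 500 bp from a TSS was a promoter summit; where other classes overlapped, 5′ UTR came before CDS, then 3′ UTR, noncoding exon and intron. The 14 motifs were sought on either strand of 201 bp windows; flanking windows lay 1 kb to either side and touched no IDR or recurrent entry. Intervals are exact binomial (Clopper-Pearson, 95%) over entries and cover counting error only. Comparisons over replicates used exact paired permutation tests (sign changes). The members, motifs and 20 gene lists were chosen with earlier results of these data known, and gene counts are descriptions. Entries and genes named were those with the best worst rank (overall and by class), with the highest and lowest signal, the strongest at each Hox and cofactor gene and at up to 3 genes of every other list, and at the 5 genes with most entries, with and without IDR summits; weaker entries at Antp, lab, Ubx and hth, and neighbouring genes such as Axn, were named after their values were seen. Sequences are of the best-ranked entries with each site, away from exons and from 1 chromosome arm not printed here. Lists for ribosomal, chemosensory and cuticle genes were added after the data were seen. Alternatives changed the matching and IDR distances, the overlap rule, the ranking column, the TSS distance, motif windows, gene extension, assembly (dm3), signal bins and the replicates required. The procedures were tested on simulated data. Python 3.11.15, numpy 2.4.6, pandas 2.3.3, scipy 1.17.1 and matplotlib 3.10.9 were used.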

Additional observations from a re-analysis of the deposited data

How the results depend on the processing

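How many entries counted as recurrent depended most on the matching rule. From 3602, the number went to 1778 with replicate summits within 50 bp, 5626 within 200 bp, 5430 with a reciprocal overlap of 50%, and 6271 to 6816 with any 1 replicate left out, which by construction asks for fewer lists. It was 3488 to 3703 under other distances from IDR peaks, the q-value ranking and the dm3 lists. The promoter share of 33.0% became 33.4%, 31.2% and 31.1% under the 50 bp, 200 bp and overlap rules, 28.2% to 30.7% without 1 replicate, 24.6% and 46.5% for a TSS within 250 and 1000 bp, 32.2% when kept 500 bp from IDR peaks, and 40.3% in the entries above the median signal. The Hox core share of 29.6% became 31.2%, 30.4% and 30.4% (30.35%) under the same 3 rules, 28.2% to 31.0% without 1 replicate, 14.8% and 60.4% in windows of 50 and 250 bp to each side, and 33.3% above the median signal. The DRE share of 2.25% became 2.76%, 1.97% and 1.92%, 1.60% to 2.06% without 1 replicate, 1.39% and 3.78% in those windows, and 3.78% above the median signal. The gene count of 3192 became 1804 with the 50 bp rule, 4674 to 5024 without 1 replicate, 1927 for spans only and 5818 with 5 kb. The promoter and DRE differences from other weak entries shrank most with signal held. With bins weighted by recurrent entries they went from 9.77 to 1.06 points ± 1.40 and from 1.15 to 0.280 ± 0.408. In the strongest bin alone they were 2.08 ± 1.29 and 0.623 ± 0.373. As unweighted means over 5 bins they were 6.79 ± 1.03 and 0.0070 ± 0.144. These means were all positive, but their size depended on how the bins were combined. Under the other distances and without 1 replicate, the promoter difference was 8.79 to 10.4 points and the DRE difference 0.981 to 1.43. The Hox core difference of -0.41 points turned to 1.27 and 0.359 with the 50 and 200 bp rules and ranged from -1.03 to 0.739 without 1 replicate; the cause was not tested. The alternatives in the strongest bin alone, without the weakest and with weighted bins were chosen after seeing the data. No paired analysis was possible between groups because there is 1 group; the paired tests compare sets of entries within each replicate. Depth is unknown, and 3 replicates limit what any of these tests can show.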
